A study of Homo sapiens with 4 samples.

Results

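NF-kappaB is a family of transcription factors that waits in the cytoplasm, bound to inhibitor proteins, until a signal from a cytokine receptor or a sensor of foreign RNA frees it. In the nucleus, it switches on chemokines, cytokines and survival genes, together with genes for its own inhibitors, which end the signal. Epithelial cells of the lung use this pathway to call in neutrophils and monocytes, and lung adenocarcinoma (LUAD) cells can keep parts of it active. The 38 genes described here are a list of cytokines, chemokines, NF-kappaB subunits, inhibitors and targets, and the rule that chose their probes used no measured values. A gene was included if a probe on the array had a RefSeq accession of that gene. This gave 48 probes for 37 of the 38 genes, out of 22439 genes named on the array in the same way. No probe was matched to *CX3CL1*.

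The RNA came from A549, an established human LUAD cell line, and was hybridized to 1-color Agilent arrays, which measure the Cy3-labeled RNA of 1 sample each. There were 4 arrays. One sample was transfected with *miR-486-5p*, the guide strand of pre-*miR-486*, and another with *miR-486-3p*, its passenger strand, while the 2 mock samples received the transfection reagent (Lipofectamine RNAiMAX) alone. All the samples shared the same cell line, the same medium (RPMI) and the same reagent. The mock samples received no RNA, so the sequence of a strand and the delivery of any small RNA cannot be told apart here. Each strand has 1 array, and the labels do not say that the mock samples were separate cultures, so p-values measure the spread between the 2 mock arrays alone, which may be technical.

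Signals are given as log2 of the processed signal minus the 75th percentile of the array, so 0 marks a probe as bright as that percentile. A log2 difference sets the transfected array against the average of both mocks, with its mean taken over the probes in use for a gene. Among 31 member probes that every array measured above background, the mocks differed by a median of 0.065 and at most 0.54 (a *CSF1* probe). Of the marker genes of epithelial cells, *KRT7*, *KRT8*, *KRT18* and *KRT19* were well above background on all 4 arrays, *EPCAM* on the *miR-486-5p* array and mock 2 alone, and *CDH1* on none. *EPCAM* had −4.56 and −3.82 in mock, −4.11 with *miR-486-5p* and −6.45 with *miR-486-3p*. The 4 leukocyte marker genes shown here (*PTPRC*, *CD3E*, *CD14* and *ITGAM*) had a probe above background on all arrays, with a summed signal of 1.198 and 1.204 times the 75th percentile in mock, 1.41 with *miR-486-5p* and 2.00 with *miR-486-3p*. The summed signal of the epithelial markers was 230 and 228 in mock, 171 with *miR-486-5p* and 173 with *miR-486-3p*. Of these 4, limma called 2 higher after *miR-486-3p* (*CD14*, and *PTPRC* by 1 of its 2 probes in use). The part of these marker values in the results below was not tested.

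Many of these genes have binding sites for NF-kappaB close to their start. The windows from 250 bases before to 50 bases after each gene start were taken from RefSeq (GRCh38.p14) and were found for 29 of the 38 genes, in 44 windows. The kappaB consensus motif was searched on both strands, and overlapping matches in opposite directions were allowed. It was found in 17 of these 44 windows (38.6%), belonging to 15 genes, against 11.3% of all 35116 windows. The genes were listed because NF-kappaB is known to control many of them, so this share describes the list. The sites of the 4 neutrophil-attracting CXC chemokines in use are shown first because they share the letters of the motif and the genes differed on the arrays. Each of these 4 sites also matches in the opposite direction, shifted by 1 base. Capitals mark the motif, and positions count from the gene start.
*CXCL1*, chr4:73869304-73869333, + strand, motif at −79: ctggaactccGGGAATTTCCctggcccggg
*CXCL2*, chr4:74099254-74099283, − strand, motif at −78: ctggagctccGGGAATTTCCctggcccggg
*CXCL3*, chr4:74038749-74038778, − strand, motif at −79: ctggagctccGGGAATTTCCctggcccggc
*CXCL5*, chr4:73998749-73998778, − strand, motif at −91: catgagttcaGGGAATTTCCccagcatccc

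The second set shows sites of the NF-kappaB subunit genes *NFKB1* and *NFKB2* and of genes for brakes and survival factors, which are NF-kappaB targets themselves. No match was found for *RELA* or *RELB*. *NFKBIZ* also had matches, at −223 and −239, which are not shown. Where a gene had more than 1 match, the one shown is that closest to a gene start.
*NFKB1*, chr4:102501300-102501329, + strand, motif at −49: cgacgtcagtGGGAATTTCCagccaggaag
*NFKB2*, chr10:102395674-102395703, + strand, motif at −21: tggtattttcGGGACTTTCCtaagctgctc
*NFKBIA*, chr14:35404811-35404840, − strand, motif at −81: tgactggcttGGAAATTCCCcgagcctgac
*TNFAIP3*, chr6:137867194-137867223, + strand, motif at −55: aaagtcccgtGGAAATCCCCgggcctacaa
*TNIP1*, chr5:151081057-151081086, − strand, motif at −42: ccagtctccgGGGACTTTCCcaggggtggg
*BIRC3*, chr11:102317339-102317368, + strand, motif at −135: tattaccgctGGAGTTCCCCtaagtcctaa

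The windows of *IL11* and *TNFAIP2*, the members with the largest rises among those above background on all arrays, held no match to the kappaB consensus. The window of *IL11* held 1 match to the core of the AP-1 site (TGANTCA, which reads the same on both strands), found in 7.71% of all windows. The core was found in 9.09% of the members' windows, also for *CXCL8* and *IL1A*, which were not well above background on any array. The site of *IL11* is shown because *IL11* had the largest log2 difference from mock of all the members.
*IL11*, chr19:55370543-55370569, − strand, motif at −96: gcagggagggTGAGTCAggatgtgtca

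Of the 37 genes, 25 had a probe well above background on all 4 arrays and 4 on some of them. The other 8, *CXCL6*, *CXCL8*, *CCL5*, *IL1A*, *IL1B*, *IL6*, *TNF* and *PTGS2*, were not well above background on any array. They include 3 of the cytokines that start an inflammatory response (*IL1A*, *IL1B* and *TNF*), and *PTGS2*, the inducible enzyme of prostaglandin synthesis. *CCL5*, a chemokine for T cells, was at −4.63 after *miR-486-3p* and between −6.97 and −6.87 on the other arrays, and all 4 of these values are below the limit. *CXCL8*, which codes for the neutrophil chemokine IL-8, had −6.76 and −6.75 in mock, −6.60 with *miR-486-5p* and −6.49 with *miR-486-3p*. *TNF* had −5.26, −5.42, −4.89 and −4.51 in the same order. No difference is given for these genes. Of the rest, 27 genes were in use on the *miR-486-5p* side and 28 on the *miR-486-3p* side, that is, bright enough on the transfected array or in each of the mocks. A gene high in the transfected sample alone entered in that way and had to differ. This holds for *CCL20* with *miR-486-5p*, and for *CSF2*, *CSF3* and 1 of the 2 probes of *C3* with *miR-486-3p*.

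After *miR-486-5p*, few members were called. *CXCL3* and *TNFAIP3* were higher and *CCL2* and *TNFAIP2* lower by limma, fitted to all 4 arrays, at a Benjamini-Hochberg adjusted p of 0.05. These are 2 higher and 2 lower of 27 members, and among all 16023 genes in use limma called 3.52% higher and 6.79% lower. Before adjustment, 17 of the 27 members and 7737 of all genes had a limma p under 0.05. Past a log2 difference of 1 and outside both mock arrays there was 1 member above (*CXCL3*; 2.53% of all genes) and 2 below (*TNFAIP2* and *CCL2*; 4.61% of all genes). In 26 of 27 members, and in 90.1% of all genes, the transfected value lay outside both mock values. The median over the 27 members was 0.022, and that over all genes 0.030. limma takes the spread of each transfected array from the mocks, and in RNA of a whole culture, fewer cells making a transcript and less transcript per cell cannot be told apart.

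More members were called after *miR-486-3p*, and in both directions. limma called 7 of 28 members higher and 14 lower, where 32.2% of all 16444 genes in use were called higher and 31.8% lower. Past a log2 difference of 1 there were 6 members above, against 14.8% of all genes, and 9 below, against 14.1% of all genes. The members lower by this measure were 32.1% of those in use, and those higher 21.4%. With probes above background on all 4 arrays, 3 members were above 1 and 9 below −1, and limma called 5 higher and 14 lower. With that filter it called 5311 higher and 5531 lower of 14959 genes. The share of all genes past 1 or −1 with that filter was not taken. The counts of 3 and 9 members therefore have no matching share beside them. All 28 members, and 94.7% of all genes, lay outside both mock values. The median over the 28 members was −0.37 against 0.058 over all genes. A scaling on the median of each array in place of the 75th percentile lowered the median of all genes after *miR-486-3p* by 0.37, to −0.32, so small differences after this strand depend on the scaling.

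**Figure D1:**
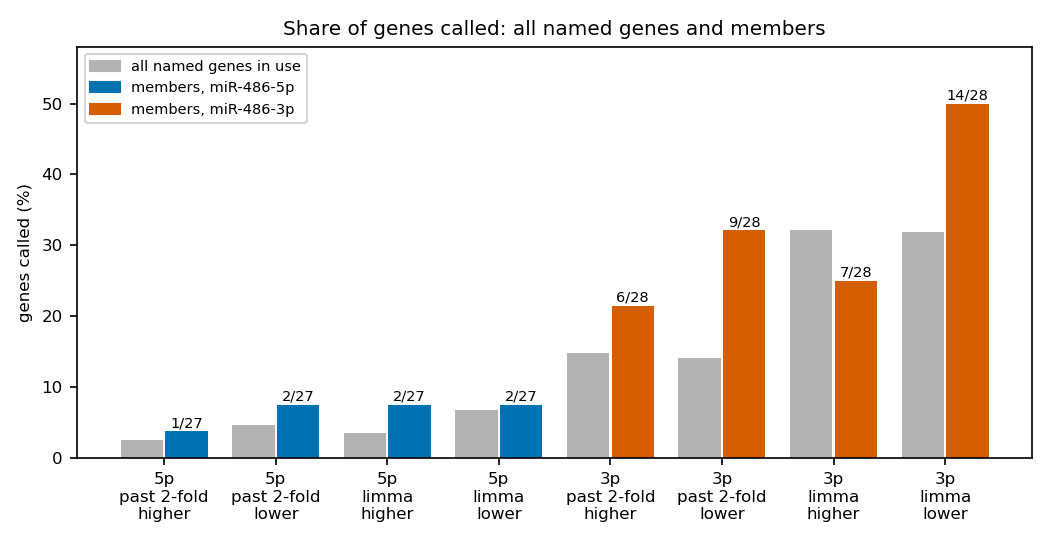
Bars give the percentage of genes called after each strand (5p or 3p), past a log2 difference of 1 (past 2-fold) or by limma. Gray bars stand for all named genes in use and colored bars for the members, with their number above. After *miR-486-3p*, 9 of 28 members were below −1, against 14.1% of all genes.

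The strands were also compared with each other by limma, without the mock arrays in the difference. Of 29 members, 7 were higher and 13 lower after *miR-486-3p* than after *miR-486-5p*, where limma called 26.7% of all 16559 genes higher and 27.4% lower. A probe was used here if it was well above background on either strand's array. *CSF2*, *CSF3* and *CCL2*, among those higher, were above background with *miR-486-3p* but not with *miR-486-5p*. They entered through the array where they were high and had to differ. Both comparisons with mock use the same mock arrays, so the values of the 2 strands are given side by side below and the strands are said to differ only by this direct test.

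**Figure D2:**
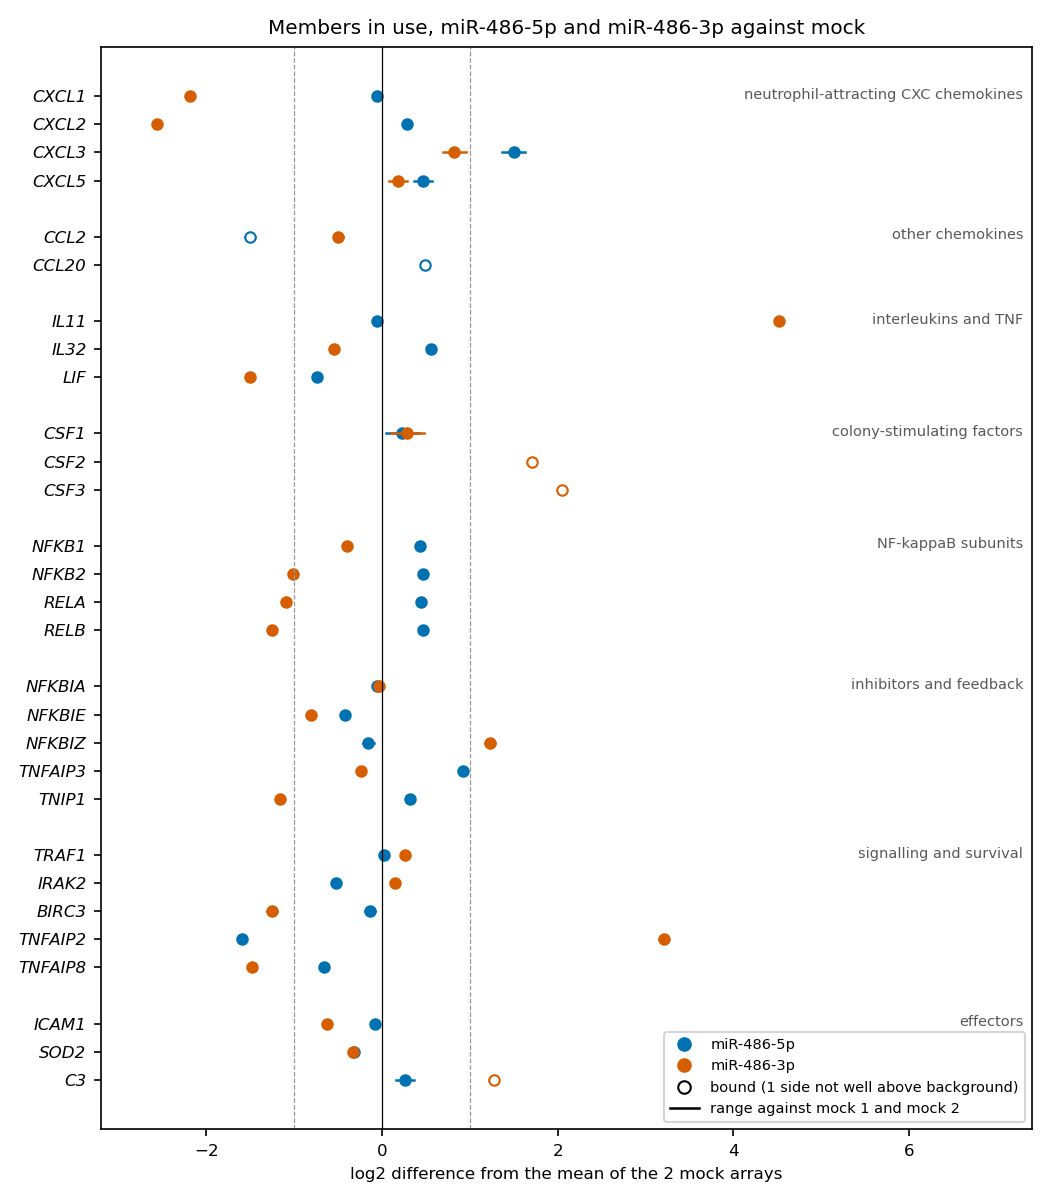
Each point is the log2 difference of 1 member from the mean of the 2 mock arrays (x axis), in blue for *miR-486-5p* and in orange for *miR-486-3p*, and lines run between the differences from mock 1 and from mock 2. Open points are bounds, and dashed lines mark −1 and 1. *IL11* (4.51) and *TNFAIP2* (3.21) lie farthest to the right after *miR-486-3p*, and *CXCL2* (−2.57) and *CXCL1* (−2.19) farthest to the left.

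The neutrophil-attracting CXC chemokines are ligands of the receptors CXCR1 and CXCR2. *CXCL1* was measured by 2 probes. The first had log2 signals of −0.71 and −0.78 in mock, −0.87 with *miR-486-5p* and −2.74 with *miR-486-3p*, and the second had −0.49, −0.38, −0.42 and −2.83. The *miR-486-3p* array was thus far below the other 3, which lay close together. The mean log2 difference after *miR-486-3p* was −2.19, that is, 21.9% of the mock signal (limma adjusted p = 0.00762 for both probes), and after *miR-486-5p* it was −0.06.

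*CXCL2* behaved likewise on the *miR-486-3p* array. Its first probe had 0.44 and 0.30 in mock, 1.00 with *miR-486-5p* and −1.53 with *miR-486-3p*. The second had 2.65, 2.66, 2.59 and −0.58. The mean difference after *miR-486-3p* was −2.57, or 16.9% of the mock signal, and limma adjusted p was 0.00841 for the first probe and 0.00762 for the second. After *miR-486-5p* the probes lay apart, at 0.64 (standard error 0.114, limma adjusted p = 0.07) and −0.06, and neither passed the test.

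*CXCL3* went the other way. Its 1 probe was dim, with −3.43 and −3.69 in mock, −2.06 with *miR-486-5p* and −2.74 with *miR-486-3p*. Both transfected arrays were above both mock arrays. *CXCL3* was 2.83-fold higher with *miR-486-5p* (limma adjusted p = 0.04997). Its log2 difference with *miR-486-3p* was 0.82 (standard error 0.162, limma adjusted p = 0.0384), and the strands did not pass the test against each other (limma adjusted p = 0.0793). The call was lost for both strands with quantile normalization (limma). *CXCL5* had 1.00 and 0.80 in mock, 1.37 with *miR-486-5p* and 1.08 with *miR-486-3p*, and passed the test after neither strand. The transcripts of *CXCL1*, *CXCL2* and *CXCL3* are known to be closely alike, and whether a probe also binds RNA of a neighboring gene was not tested.

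*CCL2*, the main chemokine for monocytes, had −3.05 and −3.16 in mock, −5.49 with *miR-486-5p* and −3.60 with *miR-486-3p*. After *miR-486-5p*, it was not well above background and was at least 2.84-fold lower (limma adjusted p = 0.0475). After *miR-486-3p*, the difference was −0.50 (limma adjusted p = 0.0425), which came to 0.06 with normexp background correction. On the measured values, *CCL2* was higher after *miR-486-3p* than after *miR-486-5p* by 1.88 (limma adjusted p = 0.0122). Its *miR-486-5p* value lay below the lowest signal called above background on that array (−4.61), so 1.88 is not a firm size. *CCL20*, which draws in cells bearing CCR6, was well above background after *miR-486-5p* alone, at −4.24 against −5.85 and −5.57 on the mock arrays, and did not pass the test (limma adjusted p = 0.051).

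Among the interleukins, *IL11* stood out. IL-11 is a cytokine of the IL-6 family that signals through gp130. Its 1 probe had −2.77 in each mock, −2.82 with *miR-486-5p* and 1.75 with *miR-486-3p*. The *miR-486-3p* value alone was high, and the other 3 were nearly equal. The difference of 4.51 (standard error 0.0873, limma adjusted p = 0.00762) is a 22.9-fold rise, and the strands differed by 4.57 (limma adjusted p = 0.0119). *LIF*, of the same cytokine family, changed in the opposite direction, with 1.41 and 1.40 in mock, 0.66 with *miR-486-5p* and −0.09 with *miR-486-3p*. It fell after *miR-486-3p* to 35.4% of the mock signal (limma adjusted p = 0.00823), and the log2 difference of −0.75 after *miR-486-5p* did not pass (limma adjusted p = 0.0519). Its second probe was above background on mock 1 alone and was not used. Without mock replicate 2 that probe enters, and the log2 difference after *miR-486-3p* becomes −0.93.

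*IL32*, a cytokine induced by TNF, had 2 probes that moved together. The first had −0.42 and −0.45 in mock, 0.09 with *miR-486-5p* and −0.97 with *miR-486-3p*. The second had 0.33, 0.49, 1.00 and −0.16. Both probes were lower after *miR-486-3p* (mean −0.55, limma adjusted p = 0.0294 and 0.0421). After *miR-486-5p* the mean was 0.56 and limma adjusted p was 0.0655 and 0.0794. The *miR-486-5p* values lay above and the *miR-486-3p* values below both mock arrays.

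The colony-stimulating factors drive the growth of granulocytes and macrophages. *CSF2*, which codes for GM-CSF, had −6.92 and −6.91 in mock and −6.80 with *miR-486-5p*, none of them well above background, and −3.02 after *miR-486-3p*. Its signal was at least 3.27-fold higher after *miR-486-3p*. *CSF3*, which codes for G-CSF, had −7.04 and −7.05 in mock, −6.92 with *miR-486-5p* and −2.68 with *miR-486-3p*, and was at least 4.14-fold higher. Both genes were above background in that sample only and so entered through it, and their folds are given as a description, while the other 3 values of each lay close together. The other *CSF3* probe was not well above background on any array, with −6.70 after *miR-486-3p*, so the rise of *CSF3* rests on 1 of its 2 probes. *CSF1*, the macrophage factor, was at 0.23 and 0.29 after the 2 strands over 2 probes, and passed the test after neither. With median scaling it was at −0.09 after *miR-486-3p*.

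**Figure D3:**
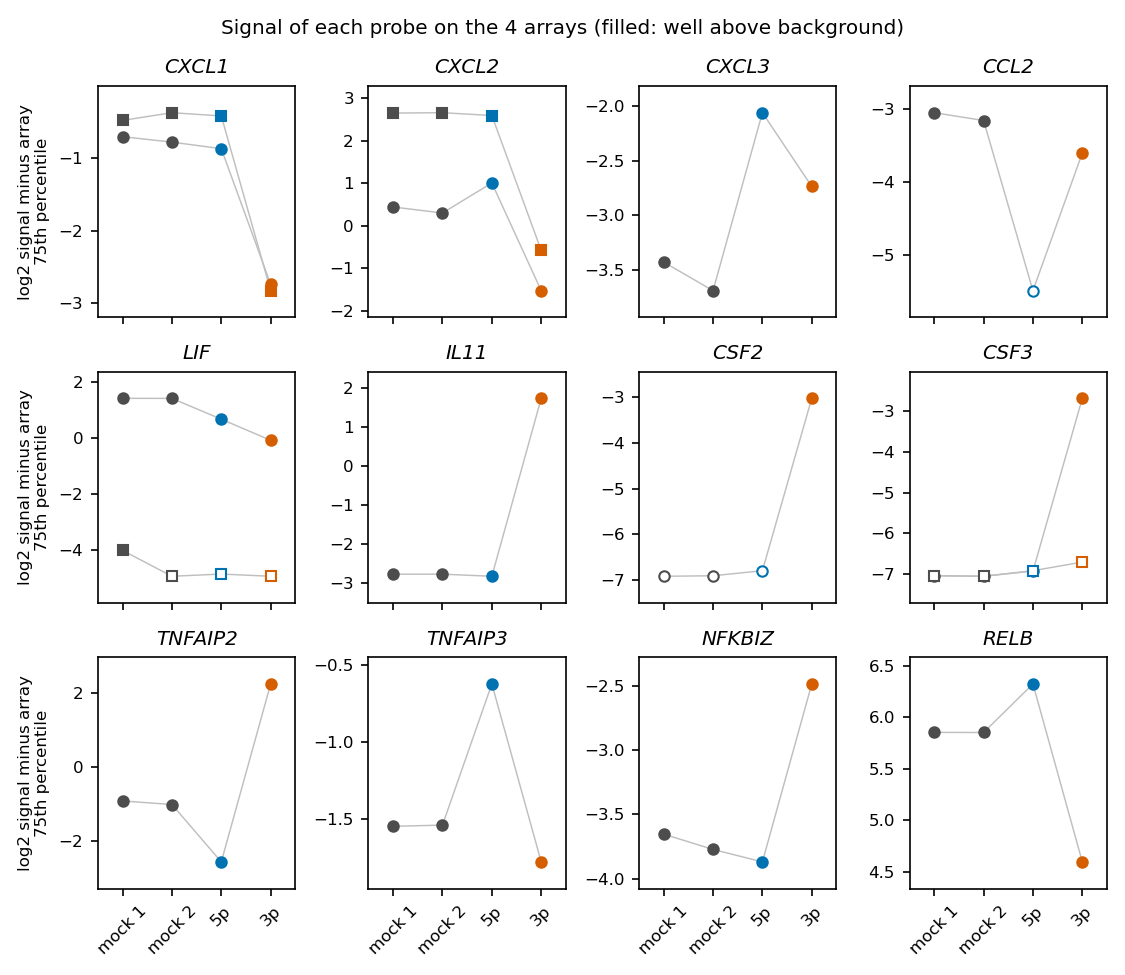
The y axis gives the log2 signal minus the 75th percentile of the array for each probe of 12 members, picked after their values were seen, in the mock samples and with *miR-486-5p* (5p) or *miR-486-3p* (3p). Each panel has its own scale, circles and squares are different probes, and open symbols were not well above background. *IL11* went from −2.77 on the mock arrays to 1.75 after *miR-486-3p*, and 1 probe of *CSF3* from −7.04 to −2.68.

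The 4 NF-kappaB subunit genes in the list lay above both mock arrays with *miR-486-5p* and below both with *miR-486-3p*. *RELA*, which codes for the main activating subunit p65, had 2 probes. The first had 0.39 and 0.38 in mock, 0.95 with *miR-486-5p* and −0.70 with *miR-486-3p*. The second had 2.08, 2.16, 2.43 and 1.03. *RELA* fell after *miR-486-3p* by 1.09 on the log2 scale, to 46.9% of the mock signal (limma adjusted p = 0.0104 and 0.0116).

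*RELB*, the partner of p52 in the non-canonical arm, had 5.85 in each mock, 6.32 with *miR-486-5p* and 4.60 with *miR-486-3p*. Its difference after *miR-486-3p* was −1.26 (limma adjusted p = 0.0091). *NFKB2*, the precursor of p52, had 0.18 and 0.20 in mock, 0.65 with *miR-486-5p* and −0.82 with *miR-486-3p*, a difference of −1.01 (limma adjusted p = 0.0113). *NFKB1*, the precursor of p50, had 2.04, 2.00, 2.45 and 1.62 in the same order, and −0.40 after *miR-486-3p* was near the threshold (limma adjusted p = 0.0491). With quantile normalization it was −0.32 and no longer passed. All 4 genes were thus lower after *miR-486-3p*, where limma called 31.8% of all genes lower. *REL*, the other subunit gene, which belongs to the further pathway lists, was at 0.26 after *miR-486-3p* (−0.12 with median scaling) and did not pass the test (limma adjusted p = 0.231). After *miR-486-5p* the 4 differences were between 0.43 and 0.47, and none passed the test (lowest limma adjusted p = 0.0605). Each of the 4 was lower after *miR-486-3p* than after *miR-486-5p* by limma, by 0.83 (*NFKB1*) to 1.73 (*RELB*) on the log2 scale.

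The inhibitors did not move as 1 group. *NFKBIA*, which codes for the classical inhibitor IkappaB-alpha and is itself a quick target of NF-kappaB, had 3.39 and 3.34 in mock, 3.30 with *miR-486-5p* and 3.32 with *miR-486-3p*. Its differences were −0.06 and −0.04 (standard error 0.0921 for each, limma). *NFKBIE*, another IkappaB, had 3.74, 3.78, 3.33 and 2.94, and was lower after *miR-486-3p* with a log2 difference of −0.81 (limma adjusted p = 0.0151). *NFKBIZ*, an atypical nuclear IkappaB that helps to switch on secondary targets, had −3.65 and −3.77 in mock, −3.87 with *miR-486-5p* and −2.49 with *miR-486-3p*. It was higher after *miR-486-3p* by 1.23 (limma adjusted p = 0.0113).

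*TNFAIP3* codes for A20, an enzyme that edits ubiquitin chains and ends NF-kappaB signaling. It had −1.55 and −1.54 in mock, −0.62 with *miR-486-5p* and −1.78 with *miR-486-3p*. The rise after *miR-486-5p* was 0.92 (standard error 0.0874, limma adjusted p = 0.0475), and the difference after *miR-486-3p* was −0.24 (limma adjusted p = 0.12). The strands differed by −1.16 (limma adjusted p = 0.015). *TNIP1*, a partner of A20, had 3.25, 3.27, 3.58 and 2.09. It fell after *miR-486-3p* by 1.17 on the log2 scale (limma adjusted p = 0.0098) and was at 0.32 after *miR-486-5p* (limma adjusted p = 0.116).

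*TNFAIP2* changed after both strands, in opposite directions. The gene is induced by TNF, and its protein shapes membrane protrusions. Its 1 probe had −0.91 and −1.01 in mock, −2.56 with *miR-486-5p* and 2.24 with *miR-486-3p*. The mock values lay between the 2 strands and far from each. The difference was −1.60 after *miR-486-5p* (33.1% of the mock signal, limma adjusted p = 0.0475) and 3.21 after *miR-486-3p* (9.22-fold higher, limma adjusted p = 0.00762). The strands differed by 4.80 (limma adjusted p = 0.0119), more than for any other member.

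*TNFAIP8*, a regulator of cell death, was lower on both transfected arrays. Its first probe had 0.52 and 0.40 in mock, −0.16 with *miR-486-5p* and −1.17 with *miR-486-3p*, and the second had −1.40, −1.34, −2.07 and −2.70. The mean was −1.48 after *miR-486-3p* (limma adjusted p = 0.00873 and 0.00909). After *miR-486-5p* it was −0.66 and did not pass (limma adjusted p = 0.0657 and 0.0544). *BIRC3*, which codes for the ubiquitin ligase cIAP2 of the TNF receptor complex, had 4.28, 4.16, 4.08 and 2.96, and fell after *miR-486-3p* by 1.25 on the log2 scale (limma adjusted p = 0.0112). *TRAF1*, an adaptor, and *IRAK2*, a kinase of the IL-1 receptor pathway, were at 0.26 and 0.14 after *miR-486-3p*, and at −0.11 and −0.23 with median scaling. With *miR-486-5p* they were at 0.02 and −0.52. Neither passed the test against mock, and *IRAK2* was higher after *miR-486-3p* than after *miR-486-5p* by 0.66 (limma adjusted p = 0.0328).

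Of the effectors, *ICAM1*, the adhesion molecule for leukocytes, had 2.18 and 2.17 in mock, 2.09 with *miR-486-5p* and 1.54 with *miR-486-3p*. It was lower after *miR-486-3p* with a log2 difference of −0.63 (limma adjusted p = 0.0216). *SOD2*, the mitochondrial superoxide dismutase, had 3.46, 3.37, 3.10 and 3.08, and passed the test after neither strand. Complement *C3* had 2 probes. The brighter one had −3.09 and −3.30 in mock, −2.93 with *miR-486-5p* and −2.25 with *miR-486-3p*. The dimmer one was above background after *miR-486-3p* alone, at −3.13, and the mock arrays lay apart for it, at −5.16 and −6.28. The brighter probe was higher after *miR-486-3p* by 0.94 (limma adjusted p = 0.0237). The mean of both probes, with the dimmer one at its bound, was 1.27, so *C3* is counted past the limit of 1 through the dimmer probe.

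The sizes of these changes depended on the background correction. The normexp correction also added an offset of 50 to each signal, where the 75th percentile of processed signal was 93.1 to 114. Such an offset makes the log2 differences of dim probes smaller by construction. Its part was not separated from that of the correction. With normexp on the median signal, the log2 differences with *miR-486-3p* were 2.52 for *IL11*, 2.33 for *TNFAIP2*, −1.77 for *CXCL2*, −0.74 for *CXCL1*, −1.35 for *RELB*, −0.88 for *RELA* and −0.62 for *TNFAIP8*. They were also smaller for dim probes, at 0.44 for *CSF2*, 0.55 for *CSF3*, 0.34 for *NFKBIZ*, 0.35 for *C3* and, for *CXCL3*, 0.43 after *miR-486-5p*. Also after *miR-486-5p*, *CCL2* came to −0.17, *TNFAIP2* to −0.57 and *TNFAIP3* to 0.51. On the authors' log2 values, no member moved by more than 0.37 from the differences given here. The limma calls after *miR-486-5p* changed with the settings. Fitted to the authors' values, limma called 0 members after this strand (16 had a p under 0.05 before adjustment), whereas a prior spread that follows brightness gave 11 higher and 7 lower.

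The rest of the pathway was described with 74 other genes, in lists of receptors, adaptors and kinases, further NF-kappaB family genes and brakes, receptors for the cytokines, and cooperating transcription factors. After *miR-486-5p*, 61 were in use, and limma called 0 higher and 3 lower, where it called 3.52% and 6.79% of all genes. Past the limit of 1 there were 2 higher (*TLR1* and *JUNB*) and 1 lower, against 2.53% and 4.61% of all genes. After *miR-486-3p*, 65 were in use. limma called 19 of them higher and 18 lower, where it called 32.2% and 31.8% of all genes. There were 10 above 1 and 6 below −1, against 14.8% and 14.1% of all genes. *LTBR* and *IL6R*, among the 10, entered through the *miR-486-3p* array and had to differ. The median differences of the other pathway genes in use were 0.077 with *miR-486-5p* and 0.25 with *miR-486-3p*, against 0.030 and 0.058 over all genes.

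After *miR-486-5p*, *BCL3* was the gene of these lists that passed both limits. It codes for an atypical IkappaB that binds p50 and p52. It had 3.99 and 3.97 in mock, 2.81 with *miR-486-5p*, and a difference of −1.17 (limma adjusted p = 0.0475). The difference was −1.16 with normexp correction.

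Among the adaptors and kinases with *miR-486-3p*, limma called 7 higher and 8 lower of 25, where 32.2% and 31.8% of all genes were called. *IRAK1*, the kinase that carries the signal of the IL-1 and Toll-like receptors, had a mean over 2 probes of 1.91 and 1.94 in mock and −0.43 with *miR-486-3p*. Its difference was −2.36, or 19.5% of the mock signal (limma adjusted p = 0.00762). *TRAF2*, the adaptor of the TNF receptors, was at −1.39 (limma adjusted p = 0.00833 and 0.00956 for 2 probes). *BTRC*, the F-box protein that sends IkappaB to the proteasome, was higher by 1.47 (limma adjusted p = 0.0085).

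Of the 12 receptors upstream of NF-kappaB in use after *miR-486-3p*, limma called 3 higher and 6 lower, against the same 32.2% and 31.8% of all genes. *LTBR*, 1 of the 3 higher, was above background with *miR-486-3p* alone, so it entered through that array and had to differ. The 2 probes in use of *IL1RAP*, the shared chain of the IL-1 receptor, went opposite ways, with a mean of −1.11. They were at −2.53 and 0.32, and only the first passed the test (limma adjusted p = 0.00762 and 0.077). *TLR1* and *TLR3*, receptors for bacterial lipopeptides and for double-stranded RNA, were higher by 1.24 and 1.07 (limma adjusted p = 0.0181 and 0.0427). After *miR-486-5p*, *TLR1* was at 1.23, which did not pass the test, and *TLR3* at 0.04. Neither gene passed the test between the strands. With normexp correction the mean of *IL1RAP* after *miR-486-3p* was −0.37, and *TLR1* and *TLR3* were at 0.39 and 0.33.

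Of the 11 receptors for the members' own products in use after *miR-486-3p*, limma called 4 higher and 1 lower. Over all genes it called 32.2% higher and 31.8% lower. *IL11RA*, the receptor chain for IL-11, had −0.92 and −0.78 in mock and 0.81 with *miR-486-3p*, and was higher by 1.66 (limma adjusted p = 0.00907). After *miR-486-5p* its difference was 0.94, which did not pass the test. *LIFR*, the receptor chain for LIF, was higher by 1.01 (limma adjusted p = 0.0393), and *PTGER4*, a prostaglandin E2 receptor, was lower, at −2.07 (limma adjusted p = 0.00796; −0.85 with normexp correction). *IL6R*, named here after its values were seen, was well above background after *miR-486-3p* alone, so it entered through that sample and had to differ. As a description, it was at least 10.7-fold higher there over 2 probes, and its log2 difference with normexp correction was 0.88. The median of the 11 cytokine receptors in use after *miR-486-3p* was 0.58, against 0.058 over all genes. This median includes *IL6R* and *CSF1R*, which were in use only through the *miR-486-3p* array. *CSF1R* was above background there and on mock 2, but not on mock 1. *IL6R* is also among the 4 called higher.

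Of the 8 cooperating transcription factors after *miR-486-3p*, *FOSL1*, an AP-1 subunit, was lower, at −1.86 (limma adjusted p = 0.00774), and *JUNB*, another, was higher by 1.24 (limma adjusted p = 0.0125). After *miR-486-5p*, *JUNB* was at 1.05, which did not pass the test, and the strands did not pass the test against each other for it. *IRF1*, which works with NF-kappaB on many antiviral genes, was higher by 1.44 (limma adjusted p = 0.0121).

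**Figure D4:**
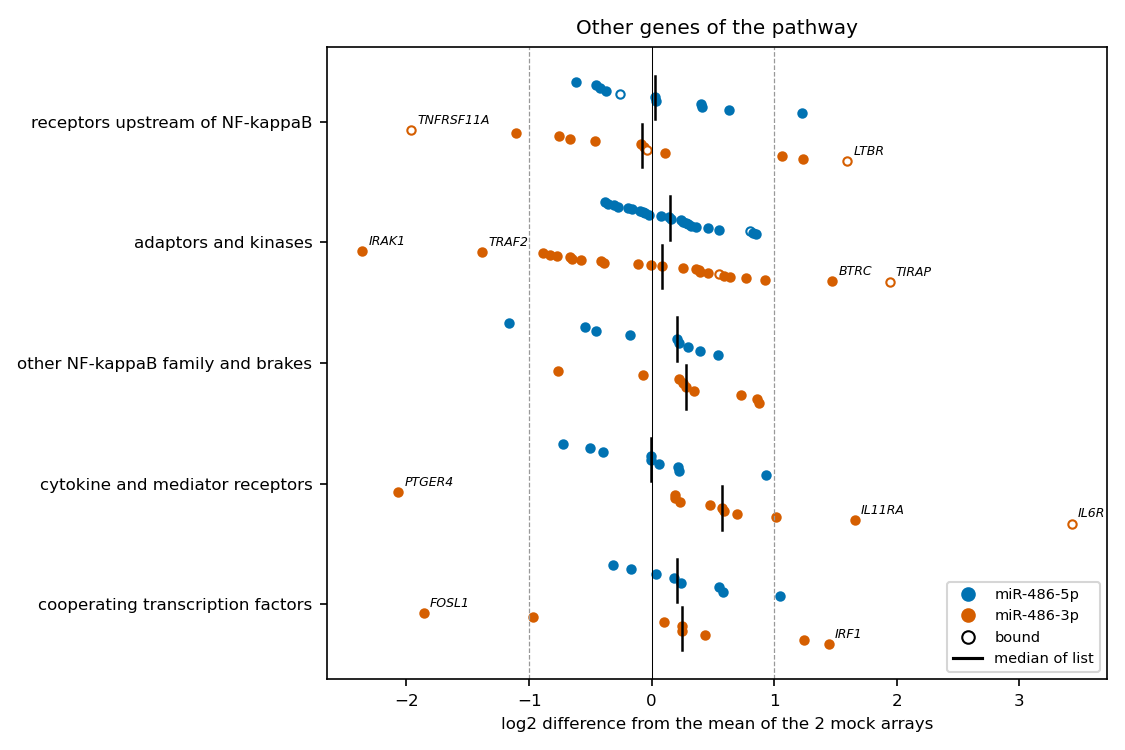
Points are the log2 differences (x axis) of the other pathway genes in use, by list, in blue for *miR-486-5p* and in orange for *miR-486-3p*. Open points are bounds, black bars mark list medians, and names are given past 1.3 where limma called the gene, a choice made after the values were seen. After *miR-486-3p*, *IRAK1* lies at −2.36 and *IL6R*, a bound, at 3.43.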

How the data were processed

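The 4 samples (1 *miR-486-5p*, 1 *miR-486-3p*, 2 mock) were grouped by their labels. Intensity values were deposited as spot signals that Agilent Feature Extraction 12.1.1.1 had background-corrected (array annotation hg19). A table of log2 values from the authors was deposited too. Against the scanner signals its scale is log2 and its centring resembles quantile normalization, with a median of 2.76 on each array. How it was made is not given in the sources used here, and it served as an alternative. All its columns were mapped. It holds no fold changes or p-values.

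Control and outlier spots (50 to 72 per array) were dropped, log2 processed signals were scaled by subtracting the 75th percentile of each array, and spots of a probe were averaged. A probe was well above background where the scanner software called every kept spot so. It was in use where this held in each mock or in the transfected sample. Where all arrays on 1 side were not well above background, each was raised to the lowest signal called above background on that array, and the difference is a bound ("at least"); p-values come from the measured values. Between 30689 and 31514 of 58201 probes per array were above background, no spot was saturated, and the arrays shared 1 slide and scan day. Over probes above background on all arrays, the log2 difference between the mocks had an SD of 0.196, that of *miR-486-5p* from mock 0.522 and that of *miR-486-3p* from mock 0.975. The small number of arrays limits the precision.

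Probes were named through their RefSeq accession and the gene table of GRCh38.p14 (31104 of 33080 matched, 22439 genes). limma 3.58.1 in R 4.3.3 (lmFit, eBayes) was fitted to 33496 probes with 3 groups and 1 residual degree of freedom, between the mocks (prior degrees of freedom 1.75). p-values were two-sided and adjusted by Benjamini-Hochberg over all probes. A gene was called where at least 1 probe in use had an adjusted p below 0.05, and where probes differ this is said. The fit was tested on simulated data. Python 3.11.15 with pandas 2.3.3, numpy 2.4.6 and matplotlib 3.10.9 was used otherwise. The members and lists were chosen with earlier results of these data known. Named were all members and, of the other pathway lists, genes called by limma, past 1 or −1 and above background on all arrays. *LTBR* and *CSF1R* are named because of how they entered. Alternatives were other scalings, background corrections, filters, probe rules, a limma intensity trend, the methods' t-test and leaving out each mock. An offset of 50 was added with normexp. One marker gene of the leukocyte list is not reported here.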

Additional observations from a re-analysis of the deposited data

How the results depend on the processing

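The counts of members past a log2 difference of 1 (1 higher and 2 lower for *miR-486-5p*, while *miR-486-3p* had 6 higher and 9 lower) changed by more than 1.5 times in these cases. With normexp correction they were 0 and 0 for *miR-486-5p*, and *miR-486-3p* gave 2 and 5. Without a filter on dim probes 2 stood higher for *miR-486-5p*. With probes above background on all 4 arrays 1 was lower for *miR-486-5p* and 3 higher for *miR-486-3p*. With a limit of 0.5, 3 were higher and 5 lower after *miR-486-5p*. Leaving out each mock replicate in turn gave 1 higher and 2 lower after *miR-486-5p*. With *miR-486-3p* there were 6 higher and 8 to 9 lower, where *LIF* left the count without mock replicate 2.

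The limma calls after *miR-486-5p* (2 higher and 2 lower) depended on the settings. Median scaling gave 4 lower. The authors' values gave 0 and 0 (16 members and 7837 genes had an unadjusted p below 0.05), and so did no filter on dim probes (17 members and 9219 genes). normexp correction gave 11 higher and 6 lower, probes above background on all 4 arrays 8 and 5, and an intensity trend 11 and 7. Over all genes, limma called 564 higher and 1088 lower after *miR-486-5p*, 3678 and 4131 with the trend, 3687 and 3845 with normexp, 2678 and 3098 with probes above background on all arrays, 1036 and 2279 with median scaling, and 0 on the authors' values or without the filter. The methods' t-test gave 0 calls after Benjamini-Hochberg for both strands (4243 genes and 12 members after *miR-486-5p*, while *miR-486-3p* had 7013 and 16, before adjustment), and cannot be made between 2 single arrays. The limma counts after *miR-486-3p* (7 higher and 14 lower) and between the strands otherwise stayed within 1.5 times. Of single members, the limma call after *miR-486-3p* was lost on the authors' values for *CXCL3*, *NFKB1* and *C3*, and *CCL2* reversed after *miR-486-3p* with normexp correction, to 0.056. The causes were not tested. Median scaling moved all genes after *miR-486-3p* from 5289 higher and 5233 lower to 3398 and 7523, and between the strands from 4419 and 4534 to 3168 and 6383.

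limma could not be fitted without a mock array, since no residual degree of freedom remains, and a slide block was not run because there was 1 slide. No paired analysis was possible because with 1 array a strand the groups share fewer than 2 replicate numbers. Dim probes limit *CXCL3*, *CCL2*, *CCL20*, *CSF2*, *CSF3*, *NFKBIZ* and *C3*.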
